A study of Mus musculus with 12 samples.

Results

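The genes described here are the nuclear-encoded subunits of the 5 complexes of the mitochondrial respiratory chain, measured in mouse embryonic fibroblasts (MEFs) with and without the deacetylase Sirt3. They were taken by symbol from the protein-coding genes of the deposited table: Nduf genes of the A, B, C, S and V series, the 4 Sdh genes, Uqcr genes with Cyc1, nuclear Cox genes from Cox4 to Cox8, and Atp5 genes. This gave 86 genes of the 34866 in the table. Complex I had 36 of them, complex II 4, complex III 9, complex IV 20 and complex V 17. Ndufa4 and Ndufa4l2 carry complex I names but are counted with complex IV, where the Ndufa4 protein resides, and so is Cox7a2l, a factor that joins complexes into supercomplexes. Another 11 genes had matching symbols but were annotated as pseudogenes, and they were set aside.

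Polyadenylated RNA was sequenced from 12 cultures, with 3 cultures for each combination of sex and genotype (WT or KO). The cells came from single embryos at 13 days, sexed by PCR for Sry, and all 4 groups were immortalized with SV40 T antigen. WT embryos were of the 129S1/SvImJ strain and KO embryos carried the Sirt3 knock-out, with the strain of the KO line named by its stock only. Cultures were seeded in triplicate and collected after 48 h, and the number of independent lines behind each group is not given in the sources used here. The p-values therefore measure the spread between these cultures, which may be technical, and effects of genotype or sex cannot be told apart from those of the line.

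The respiratory chain moves electrons from NADH (through complex I) and from succinate (through complex II) to complex III, then by cytochrome c to complex IV, where oxygen is reduced. Complexes I, III and IV pump protons, and complex V, the ATP synthase, uses the gradient to make ATP. Most subunits are encoded in the nucleus and imported, a few core ones are encoded on mitochondrial DNA, and several subunits of complex IV exist as a ubiquitous and a muscle, lung or testis isoform encoded by separate genes. Sirt3 is the main mitochondrial deacetylase, and subunits of the chain are among its known protein substrates. The comparisons below address transcript levels only.

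The values are TPM (transcript abundances scaled to a fixed total), which correct for transcript length and library size, so levels of different genes can be set side by side. Differences are log2 fold changes of log2(TPM + 1), which understates the change of genes with low values. A gene was called when its adjusted p was under 0.05 in limma, with Benjamini-Hochberg adjustment over the 12504 genes that averaged 1 TPM or more across the 12 libraries. Of the 86 members 81 passed that filter and 5 did not (Cox4i2, Cox7b2, Cox8b, Cox8c and Ndufa4l2). The member just inside the filter was Cox7a1 at 1.31 TPM and the member just outside was Cox4i2 at 0.648 TPM.

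Sirt3 itself was not lower in the libraries labelled KO. It stood at 6.59, 7.17 and 9.07 TPM in male WT, 8.88, 10.9 and 11.0 TPM in male KO, 7.40, 7.60 and 8.69 TPM in female WT, and 7.57, 9.06 and 8.19 TPM in female KO. The log2 fold change was 0.39 in males (SE 0.14, adjusted p = 0.0981) and 0.06 in females (SE 0.11, adjusted p = 0.772). The labels do not say which part of the gene is missing, so this level does not check the genotype, and KO below means the libraries labelled KO. The authors' paper includes an immunoblot of Sirt3 protein, whose outcome its caption does not put in words. Across libraries the most expressed 10 genes took 5.82% to 7.33% of the TPM, between 12256 and 12637 genes reached 1 TPM, and the depth behind the TPM is unknown. All 8 fibroblast markers were expressed. Their summed level was 9080 to 10195 TPM in male WT, 11416 to 12115 TPM in male KO, 7929 to 8115 TPM in female WT and 9694 to 10028 TPM in female KO. Col1a1 was at 2937 to 3348 TPM in male WT and at 4627 to 5047 TPM in male KO. Col3a1, Pdgfrb and Thy1 were also higher in male KO without overlap, while Col1a2, Vim, Pdgfra and Fn1 overlapped between the male groups. In females all but Vim were higher in KO without overlap. Summed levels of 5 epithelial markers, mostly Krt19, ran from 76.0 to 77.8 TPM in male WT, 7.90 to 8.78 TPM in male KO, 19.7 to 22.7 TPM in female WT and 7.40 to 10.2 TPM in female KO. The sum of 3 neuronal markers, mostly Map2, was 75.3 to 77.2, 52.5 to 64.2, 95.5 to 104 and 58.3 to 69.4 TPM in the same order. Among them Tubb3 went the other way in males, at 9.89 to 10.5 TPM in WT and 12.1 to 13.9 TPM in KO. In females Tubb3 was lower in KO without overlap. The sum of 4 endothelial markers, mostly Kdr, was 1.80 to 2.11, 1.40 to 1.63, 4.72 to 5.76 and 1.87 to 2.25 TPM in that order. In both sexes the fibroblast sum was higher and the epithelial, neuronal and endothelial sums were lower in KO without overlap. Sums of 3 immune markers and of 3 brown fat markers overlapped between KO and WT in both sexes. The part of all these markers in the results below was not tested. In such bulk samples fewer cells of a type and less RNA per cell cannot be told apart.

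Together the 86 members held between 2.10% and 2.33% of the TPM of a library. Median levels were in the order of the complexes: 139 TPM in complex I, 152 TPM in complex II, 283 TPM in complex III, 346 TPM in complex IV and 364 TPM in complex V, over the members that passed the filter. The highest member of all was Atp5b, the catalytic beta subunit of the ATP synthase, at 2925 TPM. The highest of complex IV was Cox6a1, the ubiquitous form of a small regulatory subunit of cytochrome c oxidase, at 983 TPM.

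Members of complex II lay closest together. Sdhb, the iron-sulfur subunit, was highest at 166 TPM and Sdhd, a membrane anchor, lowest at 125 TPM, a 1.34-fold range. In complex III the range was 5.73-fold, from Uqcrq, a small subunit, at 562 TPM to Uqcrc2, a core protein, at 98.0 TPM. In complex I it was 11.8-fold, from Ndufa2 at 333.8 TPM to Ndufb4 at 28.3 TPM. The ranges of complexes IV and V, 750-fold and 514-fold among tested members, were set by Cox7a1 at 1.31 TPM and by Atp5s at 5.69 TPM. Atp5s encodes a coupling factor (factor B) of the synthase. The plot of levels by complex shows these ranges.

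**Figure D1:**
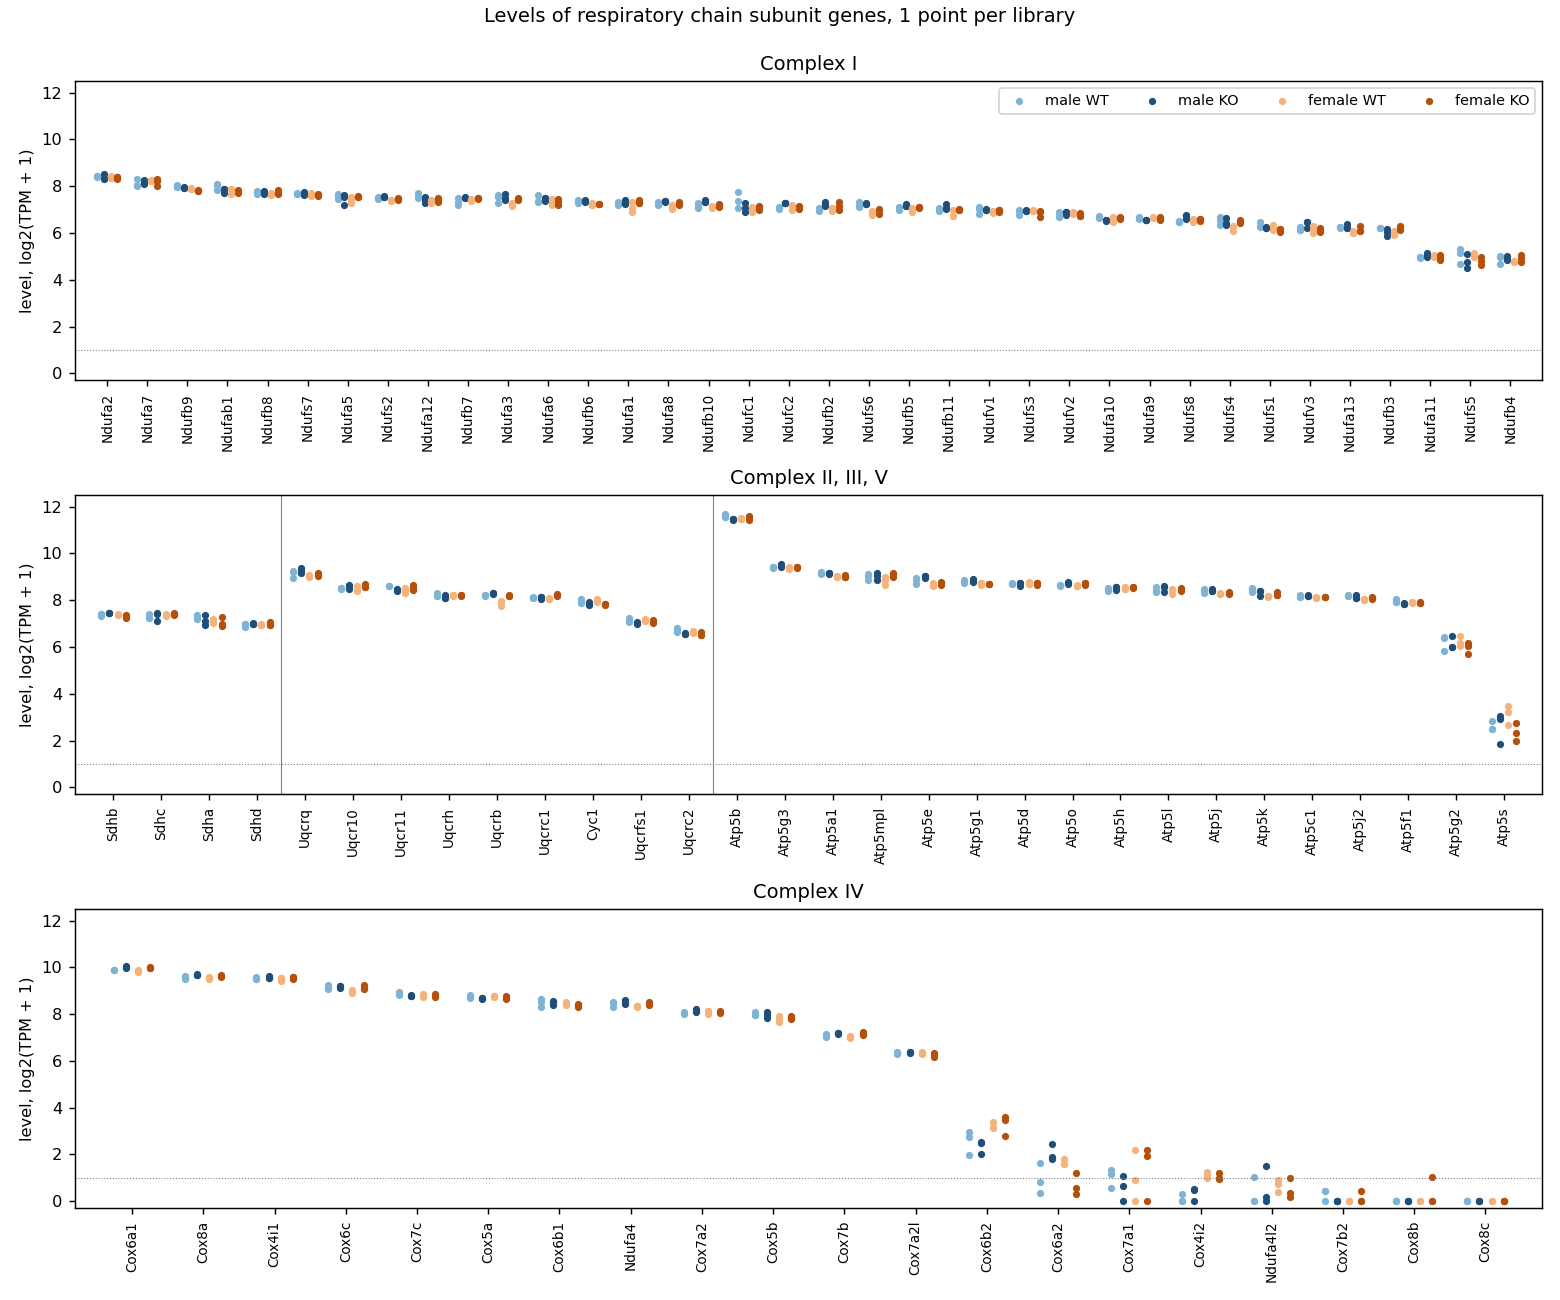
Level of each of the 86 members on the log2(TPM + 1) scale, 1 point per library, with members ordered by mean level within each complex and the 4 groups in 4 colours; the dotted line marks 1 TPM. Points of the 4 groups overlap for most members, and the spread between libraries is widest for members near or under the dotted line.

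For 4 members the level is uncertain because most of the TPM of their sequence was assigned to a pseudogene. A search of expressed pseudogenes against member transcripts (at least 95% identity over at least 80% of the pseudogene) found 18 near copies of 13 members. Copies held 89.3% of the summed TPM for Atp5g2, 84.8% for Ndufb4, 80.8% for Ndufs5 and 61.8% for Ndufa12. They held 45.9% for Cox7a2l and 19.8% for Atp5l, and under 1% for the other 7.

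The most expressed copy was Gm10175 on chromosome 7 (GRCm38, chr7:23946646-23947290, minus strand), identical over all its 645 bases to the transcript of Atp5g2, which encodes a form of the c subunit of the ATP synthase and lies on chromosome 15. Gm10175 stood at 588 TPM and Atp5g2 at 70.6 TPM, and the annotation places no other gene over Gm10175. Ndufb4c (chr15:73809507-73809896, minus strand, 158 TPM) was identical over 390 bases to Ndufb4, a membrane arm subunit of complex I at 28.3 TPM, and lies in an intron of Mroh5. Gm15920 (chr5:130188395-130188796, plus strand, 282 TPM) lies in an intron of Rabgef1 and matched 99.5% of 402 bases of Ndufa12, an N module subunit at 174 TPM. BC002163 (chr16:42955631-42955949, plus strand, 125 TPM) lies in an intron of Zbtb20 and matched 99.4% of 319 bases of Ndufs5, at 29.6 TPM. The introns that hold Ndufb4c, Gm15920 and BC002163 belong to genes on the same strand, and each of these copies is annotated with 1 exon.

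The stretches below show how little separates member and copy where any base differs at all. The first pair covers coding bases 105 to 164 of Ndufa12, the second coding bases 51 to 110 of Ndufs5. They come from the GENCODE transcripts of release M21, and capitals mark the bases at which member and copy differ.
Ndufa12: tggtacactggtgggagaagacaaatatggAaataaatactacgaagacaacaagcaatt
Gm15920: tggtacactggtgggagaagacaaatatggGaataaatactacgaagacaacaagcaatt
Ndufs5: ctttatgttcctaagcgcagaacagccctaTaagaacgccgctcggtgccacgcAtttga
BC002163: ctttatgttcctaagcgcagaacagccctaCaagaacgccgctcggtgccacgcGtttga
Over the whole aligned coding sequence, 2 bases differed in each pair, and for Ndufb4 and Ndufb4c none of 387 did. Only reads over a differing base, or beyond the end of the copy, can tell such a pair apart.

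With the TPM of copies added to their member, all 33 calls of the 5 comparisons below remained and 3 were gained. Ndufb4 with its copies was higher in male KO than in male WT (log2 fold change 0.20, adjusted p = 0.0492, limma), Ndufs5 with its copy was higher in male WT than in female WT (0.35, adjusted p = 0.00906) and Atp5g2 with its copy was higher in male KO than in female KO (0.16, adjusted p = 0.0415). The share of Atp5g2 in the summed TPM of the 3 genes for the c subunit (Atp5g1, Atp5g2 and Atp5g3) was 5.96% as deposited and 37.1% with copies added. In the gained calls the difference lay mostly in the entries of the copies. Ndufb4 itself stood at 28.6 TPM in male WT and 29.2 TPM in male KO, and Ndufb4c at 154 and 179 TPM. Ndufs5 itself stood at 32.5 TPM in male WT and 32.0 TPM in female WT, and BC002163 at 145 and 106 TPM. Atp5g2 itself stood at 70.7 TPM in male KO and 62.4 TPM in female KO, and Gm10175 at 636 and 571 TPM. The choice to add copies was made after the data were seen.

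**Figure D2:**
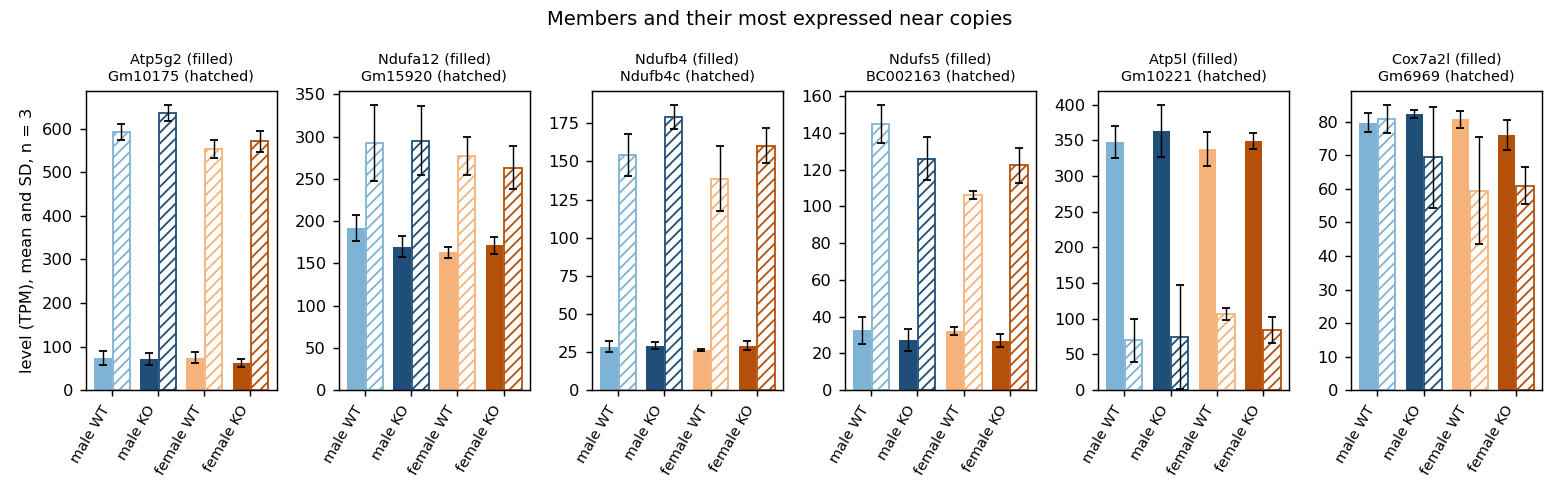
Level in TPM of the 6 members with more than 10% of their summed TPM on near copies (filled bars) and of their most expressed copy (hatched bars), as group mean with SD over 3 libraries. The copy exceeds the member in all 4 groups for Atp5g2, Ndufa12, Ndufb4 and Ndufs5.

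The first comparison asked which subunit genes differed between KO and WT cells of males. Of the 81 members tested 6 were called, 4 higher and 2 lower in male KO, which is 7.41% against 21.6% of all genes tested (10.7% higher and 10.9% lower). Among the 1363 genes averaging 124 TPM or more, the lower quartile of the members, 33.7% were called. The changes were small: the median size of the log2 fold change was 0.08 over the members and 0.17 over all genes tested. The median SE was lower for the members too (0.06 against 0.10), so these sizes are not matched for spread. For 74 members the 95% interval of the change lay within 0.5 of 0. Groups did not overlap for 23 members, against 40.0% of all genes tested.

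Of the 36 complex I members 3 rose in male KO and none fell. Ndufc2, a membrane arm subunit, stood at 135, 130.3 and 136 TPM in male WT and at 154, 156 and 156 TPM in male KO. Each KO culture was above each WT culture. The log2 fold change was 0.21 (SE 0.04, adjusted p = 0.00693), and the call held without each of the 6 libraries in turn.

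Ndufs8, an iron-sulfur subunit of the Q module that reduces ubiquinone, stood at 90.1, 86.8 and 86.5 TPM in male WT and at 97.3, 108 and 105 TPM in male KO, with no overlap. It rose by 0.24 (SE 0.05, adjusted p = 0.0192). With 1 library left out at a time it stayed called only without male KO replicate 1 or male WT replicate 1 (adjusted p from 0.0142 to 0.0691 over the 6 fits). Ndufb2, a membrane arm subunit, rose by 0.23 (SE 0.06, adjusted p = 0.0402), from 128 ± 6.92 to 150.2 ± 10.3 TPM (SD, n = 3), and stayed called only without male KO replicate 2 or male WT replicate 2 (adjusted p from 0.0360 to 0.123). No member of the N module, the part that oxidizes NADH, was called by limma among its 9, and 1 had an unadjusted p under 0.05. In the membrane arm 2 of 20 and in the Q module 1 of 7 were called.

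In complex III 1 of 9 members fell. Uqcr11, the smallest subunit of the complex, stood at 393, 391 and 384 TPM in male WT and at 337, 354 and 347 TPM in male KO. All KO values lay under all WT values, and the log2 fold change was -0.17 (SE 0.03, adjusted p = 0.0108), which held without each of the 6 libraries. Uqcrc2, the lowest member of the complex, was at 106 ± 7.13 TPM in male WT and 93.3 ± 1.34 TPM in male KO (SD, n = 3) and missed the threshold (log2 fold change -0.19, adjusted p = 0.0561, limma).

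In complex IV 1 of 15 tested members was called. Cox6a1 stood at 959, 950.4 and 955 TPM in male WT and at 1069, 1034 and 1015 TPM in male KO, without overlap. It rose by 0.12 (SE 0.03, adjusted p = 0.0262), and stayed called only without male KO replicate 3 (adjusted p from 0.0431 to 0.0806 over the 6 fits). Cox8a, the ubiquitous form of the smallest subunit of complex IV, went from 758 ± 30.7 to 829 ± 20.0 TPM (SD, n = 3), a log2 fold change of 0.13 that missed the threshold (adjusted p = 0.0551, limma).

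In complex V 1 of 17 members fell. Atp5b stood at 3053, 3255 and 2986 TPM in male WT and at 2856, 2809 and 2740 TPM in male KO, with no overlap. The log2 fold change was -0.14 (SE 0.04, adjusted p = 0.0361) and stayed called only without male WT replicate 3 (adjusted p from 0.0430 to 0.119 over the 6 fits). Because Atp5b is by far the most abundant member, the summed level of complex V was 8872 ± 105.9 TPM in male WT and 8673 ± 223 TPM in male KO (log2 ratio -0.03), and the ratio was 0.02 with Atp5b left out. None of the 4 members of complex II was called by limma or had an unadjusted p under 0.05, and their 95% intervals all lay within 0.5 of 0.

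**Figure D3:**
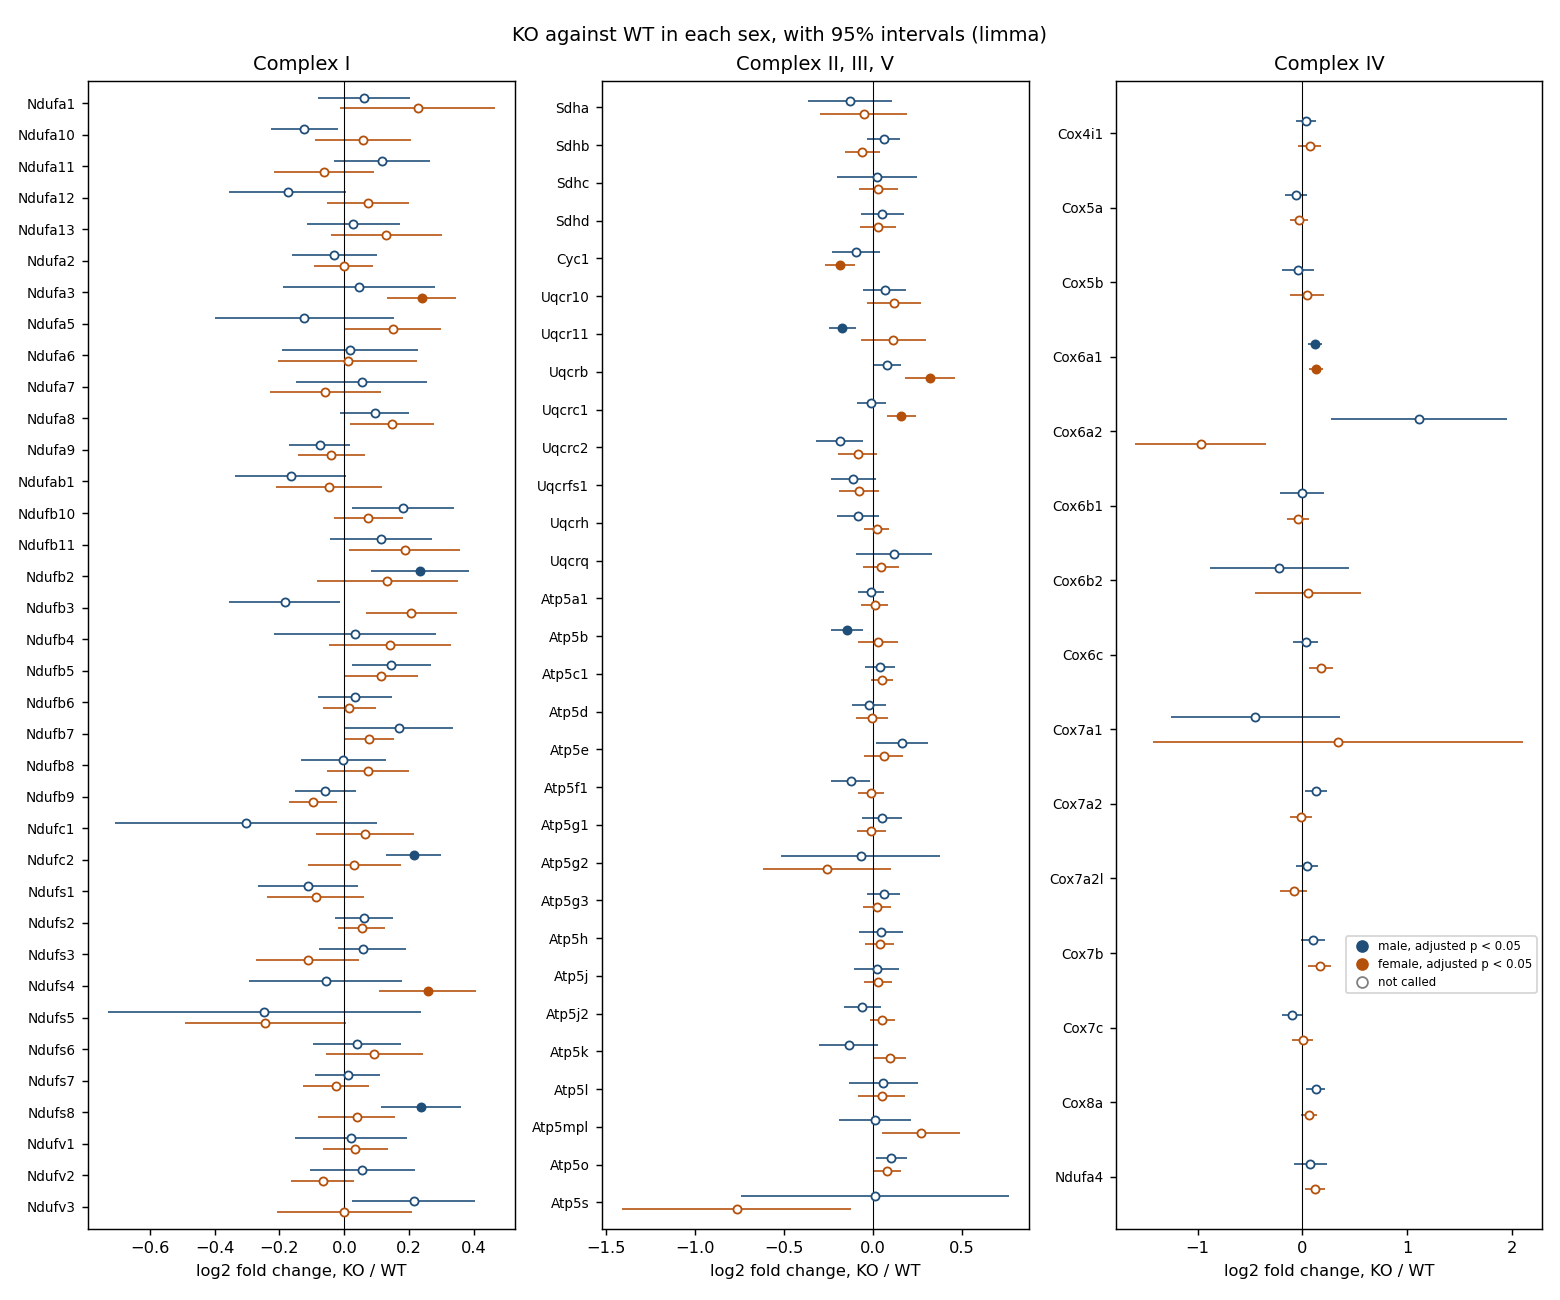
Log2 fold change of KO over WT for the 81 tested members, males in blue and females in orange, with the 95% interval of each from limma; filled points are called (adjusted p under 0.05) and the 3 panels have their own horizontal scales. Most intervals cross 0 in both sexes, and the widest belong to Cox7a1, Cox6a2, Cox6b2 and Atp5s, the tested members with the lowest levels.

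The second comparison put the same question to females. Again 6 of 81 members were called, 5 higher and 1 lower in female KO, which is 7.41% against 11.5% of all genes tested (5.63% higher and 5.84% lower) and 22.2% of the genes at 124 TPM or more. The median size of the change was 0.07 over the members and 0.13 over all genes tested, with median SEs of 0.05 and 0.09. The 95% interval lay within 0.5 of 0 for 76 members. Groups did not overlap for 20 members, against 33.6% of all genes tested.

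Complex III had 3 of the 6 calls. Uqcrb, the subunit that binds ubiquinone near the core, stood at 248, 241.5 and 213 TPM in female WT and at 286, 299.9 and 292 TPM in female KO. The female WT cultures were the lowest 3 of all 12, and the 3 female KO cultures overlapped with male WT. The log2 fold change was 0.32 (SE 0.06, adjusted p = 0.0185), and the call was lost without each of the female KO libraries and held without each of the female WT ones (adjusted p from 0.0185 to 0.0664).

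Uqcrc1, a core protein of complex III, stood at 266, 271 and 266 TPM in female WT and at 311, 299 and 289 TPM in female KO, with no overlap. It rose by 0.16 (SE 0.03, adjusted p = 0.0284) and stayed called only without female KO replicate 3 (adjusted p from 0.0347 to 0.0930 over the 6 fits). Cyc1, the cytochrome c1 subunit that passes electrons to cytochrome c, moved the other way. It stood at 262, 244 and 259 TPM in female WT and at 225, 223 and 226 TPM in female KO, a log2 fold change of -0.18 (SE 0.04, adjusted p = 0.0217). It stayed called only without female WT replicate 2 (adjusted p from 0.0144 to 0.0786).

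In complex I 2 of 36 members rose in female KO. Ndufa3, a membrane arm subunit, stood at 139.7, 155 and 149 TPM in female WT and at 173, 171 and 179 TPM in female KO. The groups did not overlap, and the log2 fold change was 0.24 (SE 0.04, adjusted p = 0.0197), which stayed called only without female WT replicate 1 or 2 (adjusted p from 0.0243 to 0.0670 over the 6 fits). Ndufs4, an N module subunit known for its part in complex I stability, stood at 77.9, 67.9 and 75.1 TPM in female WT and at 87.6, 92.4 and 84.2 TPM in female KO. Its log2 fold change was 0.26 (SE 0.06, adjusted p = 0.0465), and the call was lost without each of the 6 libraries in turn (adjusted p from 0.0629 to 0.1297).

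Complex IV had 1 call of 15. Cox6a1 stood at 926, 899.6 and 949.5 TPM in female WT and at 1019, 1020 and 999.8 TPM in female KO. It rose by 0.13 (SE 0.03, adjusted p = 0.0265) and stayed called only without female WT replicate 3 (adjusted p from 0.0432 to 0.0829 over the 6 fits). Cox6a1 was the only member called in both sexes, in the same direction. The share of all genes called in both sexes is not given here, so this count is not read further. No member of complexes II and V was called in females by limma, and 0 and 3 of them had an unadjusted p under 0.05.

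These counts depended on the fit. Without a mean-variance trend in limma 1 member was called in males and 0 in females, where 12 had an unadjusted p under 0.05, beside 17 with the trend. Without the filter on low values 1 was called in females. The shares of all genes called in these fits are not given here. The drops therefore cannot be read as particular to the members.

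The third comparison asked whether the effect of genotype differed between the sexes, as the sex by genotype interaction over all 12 libraries (the male change minus the female change). Of 81 members 4 were called, 1 higher and 3 lower, which is 4.94% against 13.0% of all genes tested (6.70% higher and 6.33% lower) and 21.3% of those at 124 TPM or more.

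Ndufb3, a membrane arm subunit of complex I, stood at 72.9, 73.9 and 72.6 TPM in male WT, 65.4, 57.9 and 70.1 TPM in male KO, 66.2, 59.1 and 64.2 TPM in female WT, and 76.7, 72.8 and 69.5 TPM in female KO. KO lay under WT in males and above it in females, without overlap in either sex. The interaction was -0.39 (SE 0.10, adjusted p = 0.0204) and held without 11 of the 12 libraries, the exception being female KO replicate 1 (adjusted p = 0.0523). Neither change passed by itself, with log2 fold changes of -0.18 in males (adjusted p = 0.120) and 0.21 in females (adjusted p = 0.0731).

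For Uqcrb the interaction was -0.24 (SE 0.07, adjusted p = 0.0406), with changes of 0.08 in males, which missed the threshold (adjusted p = 0.126), and 0.32 in females. It held without each female WT library and was lost without each of the other 9 (adjusted p from 0.0197 to 0.0914). Male WT stood at 300.5, 293.6 and 289 TPM and male KO at 315, 312 and 306 TPM. For Uqcrc1 the interaction was -0.17 (SE 0.05, adjusted p = 0.0343). It was lost without female KO replicate 1 or 2, male KO replicate 2, female WT replicate 1 or 3, or male WT replicate 2 or 3 (adjusted p from 0.0214 to 0.0780 over the 12 fits). Its level was 275 ± 4.72 TPM in male WT and 273 ± 7.01 TPM in male KO (SD, n = 3), a log2 fold change of -0.01.

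The only positive interaction was that of Cox6a2, the heart and skeletal muscle form of the subunit whose ubiquitous form is Cox6a1. Cox6a2 stood at 0.747, 0.258 and 2.14 TPM in male WT, 2.52, 4.38 and 2.67 TPM in male KO, 2.45, 2.01 and 2.05 TPM in female WT, and 0.225, 0.478 and 1.32 TPM in female KO. The interaction was 2.08 (SE 0.47, adjusted p = 0.0130) and held without each of the 12 libraries. The change within a sex did not pass in males (log2 fold change 1.11, adjusted p = 0.0684) or in females (-0.97, adjusted p = 0.0610). Even its highest library held 0.421% of the Cox6a1 and Cox6a2 sum.

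The last pair of comparisons set the sexes against each other within a genotype. Between male WT and female WT 8 of 81 members were called, all higher in male WT, which is 9.88% against 12.8% of all genes tested and 22.2% of those at 124 TPM or more. Of all genes tested 6.26% were called higher and 6.56% lower. Groups did not overlap for 22 members, against 33.4% of all. Complexes I and V had 3 calls each, III and IV 1 each, and II had 0 by limma, with 1 member at an unadjusted p under 0.05. Among the called members the 3 of largest change were Ndufs6, Uqcrb and Atp5k.

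Ndufs6, an N module subunit of complex I, stood at 142, 138.8 and 159 TPM in male WT and at 109, 121 and 115 TPM in female WT, a log2 fold change of 0.35 (SE 0.06, adjusted p = 0.0148). Male and female values did not overlap, and the call was lost only without female WT replicate 1 or 3 (adjusted p up to 0.0550). Uqcrb was higher in male WT by 0.33 (SE 0.06, adjusted p = 0.0130), on the values given above, and held without each of the 6. Atp5k, a membrane subunit that links ATP synthase dimers, stood at 363, 323 and 355 TPM in male WT and at 286, 286 and 285 TPM in female WT. It was higher by 0.28 (SE 0.05, adjusted p = 0.0102) and held without each of the 6.

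Between male KO and female KO 9 of 81 members were called, 8 higher and 1 lower in male KO, which is 11.1% against 16.6% of all genes tested (8.17% higher and 8.39% lower) and 27.6% of those at 124 TPM or more. Groups did not overlap for 27 members, against 35.4% of all. Complex I had 4 calls, complex V 3 and complex IV 2. Among the called members the 3 of largest change were Cox6a2, Cox6b2 and Ndufs6.

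Cox6a2 was higher in male KO by 1.35 (SE 0.29, adjusted p = 0.0224) and stayed called only without female KO replicate 3 or male KO replicate 1 (adjusted p from 0.0139 to 0.0711). Cox6b2, the testis form of a subunit at the dimer interface of complex IV, stood at 4.54, 4.74 and 3.08 TPM in male KO and at 11.0, 10.2 and 6.01 TPM in female KO. It was lower in male KO, with a log2 fold change of -0.95 (SE 0.24, adjusted p = 0.0379), and stayed called only without female KO replicate 3 (adjusted p from 0.0133 to 0.117). Ndufs6 was higher in male KO by 0.29 (SE 0.06, adjusted p = 0.0132), at 150.2, 149 and 153 TPM against 127, 129 and 113 TPM, and was called without 5 of the 6. Male KO replicate 3 was the exception (adjusted p = 0.0540).

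Ndufs6 and Atp5a1, the alpha subunit of the ATP synthase, were the members called between the sexes in both genotypes. The share of all genes called in both genotypes is not given here. Atp5a1 was higher in males by 0.15 in WT (adjusted p = 0.0189) and by 0.13 in KO (adjusted p = 0.0310), from limma. With 1 library left out at a time its adjusted p reached 0.0750 in WT and 0.0965 in KO. Atp5e, the epsilon subunit in the central stalk, was also called between KO groups, and the call held without each of the 6 libraries, at 512 ± 14.3 TPM in male KO and 422 ± 18.2 TPM in female KO (SD, n = 3; log2 fold change 0.28, adjusted p = 0.00441). It was chosen for this after its values were seen.

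The X chromosome carries 3 members, Ndufa1, Ndufb11 and Cox7b, singled out after the values were seen, and none was called between the sexes. Their log2 fold changes of male WT over female WT were 0.16 (95% interval -0.07 to 0.40), 0.20 (0.01 to 0.38) and 0.06 (-0.05 to 0.17). Those of male KO over female KO were 0.00 (-0.14 to 0.14), 0.12 (-0.01 to 0.26) and -0.01 (-0.12 to 0.11).

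Summed over its members, each complex had a log2 ratio of KO over WT between -0.03 and 0.05 in males and between -0.01 and 0.07 in females, as the plot of sums by library shows. The sum over all members was 22704 ± 359 TPM in male WT, 22718 ± 492 TPM in male KO, 21402 ± 348 TPM in female WT and 22186 ± 356 TPM in female KO (SD, n = 3). The male groups overlapped (log2 ratio of KO over WT 0.00), and the female groups did not (0.05). Female WT was the lowest group.

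In females the sums of complexes III and IV also did not overlap, at log2 ratios of 0.07 each, while those of complexes I and V overlapped, at 0.05 and 0.04. Between WT groups the sums of complexes I, III and V were higher in males without overlap, by 0.10, 0.09 and 0.10. Between KO groups the sum of complex I was higher in males without overlap, by 0.06, and those of the other complexes overlapped. The sum over all members was higher in males without overlap in both genotypes, by 0.09 in WT and 0.03 in KO. Complex II differed least between KO and WT, with 600 ± 15.5, 602 ± 24.8, 589 ± 9.53 and 585 ± 25.5 TPM in the male WT, the male KO, the female WT and the female KO groups. A sum over members has no test here, and leaving out 1 library moved the KO to WT ratio of a complex to between -0.05 and 0.09.

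**Figure D4:**
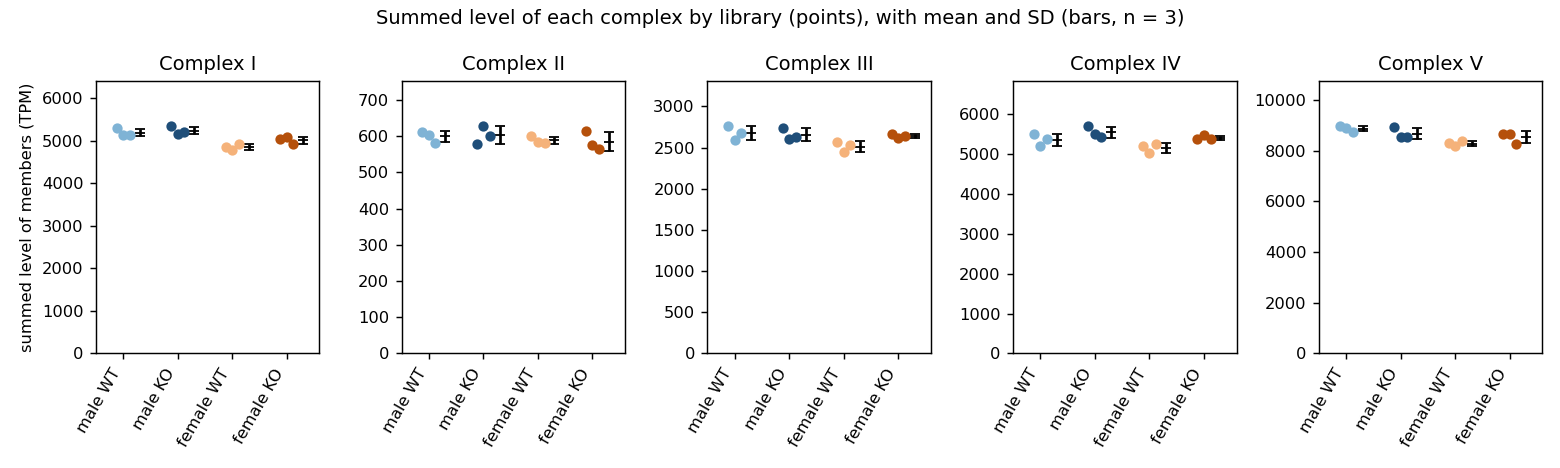
Summed TPM of the members of each complex, 1 point per library, with the mean and SD of the 3 libraries of a group beside the points and each vertical axis starting at 0. The 4 groups lie close together on these axes, and female WT has the lowest mean in complexes I, III, IV and V.

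By complex, the median log2 fold change in males was 0.03 in complex I, 0.04 in complex II, -0.08 in complex III, 0.04 in complex IV and 0.01 in complex V, beside -0.02 over all genes tested. Of the 9 complex III members 3 lay above 0 in males and 6 in females. In females the medians were 0.06, -0.01, 0.05, 0.06 and 0.03, beside -0.02 over all genes. Over all members 48 of 81 lay above 0 in males (59.3%, beside 47.4% of all genes) and 55 in females (67.9%, beside 44.9%).

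The tissue isoforms of complex IV were far below their ubiquitous partners, as the plot of isoform levels shows. Means over the 12 libraries were under 2 TPM for all 8 but Cox6b2, which averaged 6.69 TPM. Cox4i2, the lung form of subunit 4 that responds to oxygen, stood at 0.224, 0 and 0 TPM in male WT, 0.377, 0 and 0.435 TPM in male KO, 0.996, 1.35 and 1.15 TPM in female WT, and 1.01, 1.28 and 0.949 TPM in female KO. All 6 female libraries were above all 6 male ones. It lay under the filter, so its tests come from the fit without one. There it was lower in male WT than in female WT (log2 fold change -1.01, SE 0.11, adjusted p = 0.0139), and the difference between KO groups missed the threshold (-0.73, SE 0.17, adjusted p = 0.0818). Its highest share of the Cox4i1 and Cox4i2 sum was 0.200%.

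Cox7a1, the heart and muscle form of subunit 7a, was between 0 and 3.61 TPM, and no comparison called it. It was at 0 in male KO replicate 3, female WT replicate 3 and female KO replicate 2, and highest in female WT replicate 1. Cox7a2, its ubiquitous partner, had a mean of 274 TPM, and Cox7a1 was at most 1.30% of the pair. Cox8b, the heart and muscle partner of Cox8a, was listed at 0 in 11 libraries and at 1.07 TPM in female KO replicate 2. Cox8b lies 16636 bases from Sirt3 on chromosome 7. Cox8c, a testis form, was listed at 0 in all 12 libraries.

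Cox7b2, a testis form beside the ubiquitous Cox7b (138 TPM), was above 0 in 3 libraries, at most at 0.282% of the pair. Ndufa4l2, a form of Ndufa4 known to be induced by hypoxia, was above 0 in 9 libraries and reached 1.85 TPM in male KO replicate 3 beside 346 TPM for Ndufa4 on average. Cox6b2 took the largest isoform share in complex IV, between 0.719% and 3.33% of the pair with Cox6b1 (348 TPM). Group means of that share were 1.47% ± 0.706 in male WT, 1.15% ± 0.295 in male KO, 2.41% ± 0.370 in female WT and 2.65% ± 0.839 in female KO (SD, n = 3).

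The 9 striated muscle markers were low too, with a summed level of 13.0 to 13.6 TPM in male WT, 8.70 to 8.98 TPM in male KO, 21.6 to 27.9 TPM in female WT and 20.4 to 21.6 TPM in female KO, mostly Tnnt2, Acta1 and, in female WT, Des. Myod1 reached at most 0.124 TPM and Myog 0.0887 TPM. The marker sum was lowest where Cox6a2 was highest, in male KO. Within males the difference was mostly in Acta1, at 8.87 to 11.0 TPM in WT and 4.87 to 5.28 TPM in KO. Tnnt2 overlapped between the male groups, and Ckm was higher in male KO, at 0.276 to 0.440 TPM, without overlap. The part of these markers in the isoform levels was not tested.

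**Figure D5:**
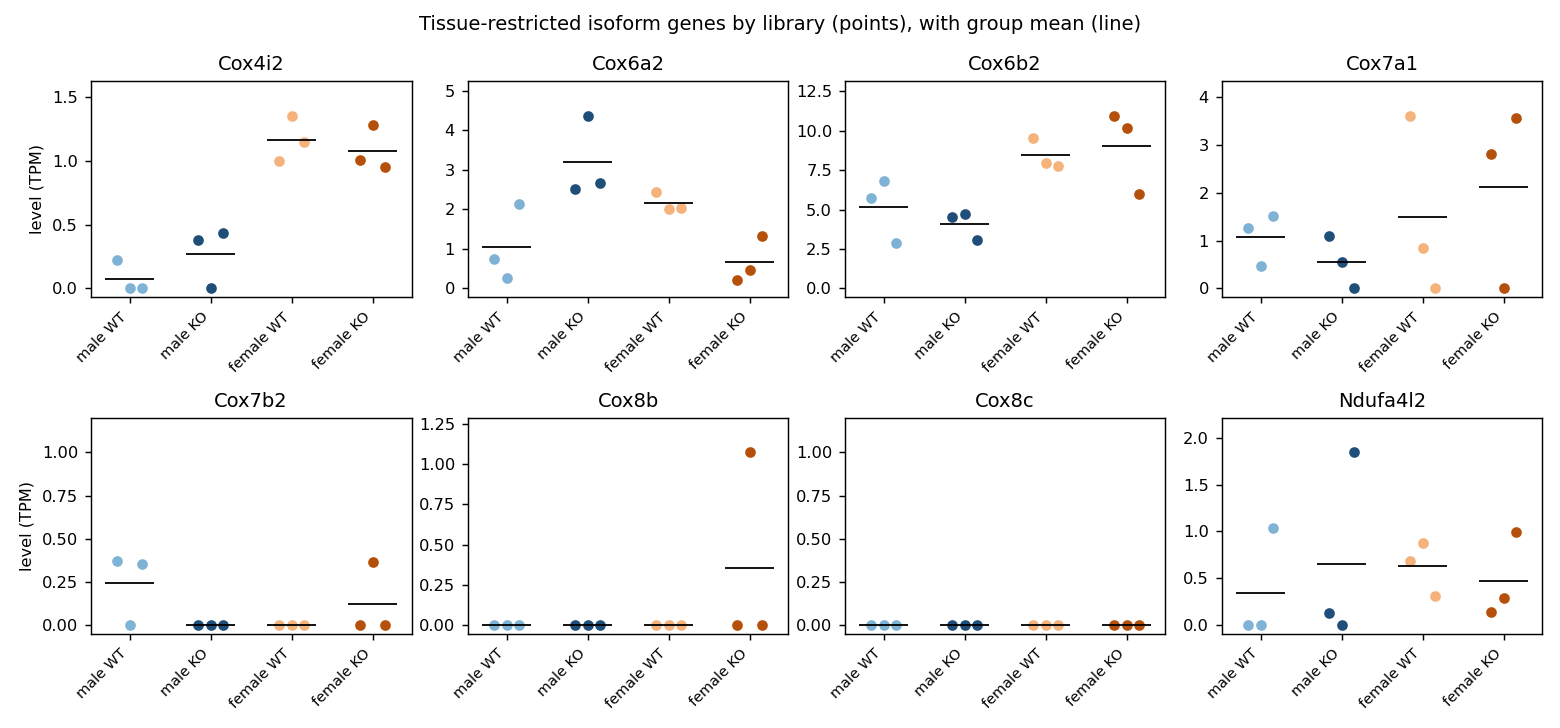
Level in TPM of the 8 tissue-restricted isoform genes of complex IV in each of the 12 libraries (points) with the group mean (line), each panel with its own vertical axis. Cox4i2 is higher in all 6 female libraries than in all 6 male ones, Cox6a2 is highest in male KO, and Cox8c is listed at 0 throughout.

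The genes that serve the chain were counted in the same fits. Of 51 assembly factors 50 were tested. In males 5 of 50 were called, against 21.6% of all genes. Cox14, an assembly factor of complex IV, rose from 85.7 ± 4.99 to 115 ± 6.06 TPM (SD, n = 3; log2 fold change 0.43, adjusted p = 0.00318), and Coa5, also of complex IV, rose by 0.23 (adjusted p = 0.0208). Ttc19, a complex III factor, had a change of -0.33 (adjusted p = 0.0286), Cox17, a copper chaperone, of -0.29 (adjusted p = 0.00378) and Cox18, which inserts a core subunit into the membrane, of -0.23 (adjusted p = 0.0357), all from limma. Coa5 and Cox18 were named after their values were seen, to complete the count. In females 1 of 50 was called, against 11.5% of all genes: Ndufaf2, a complex I factor (-0.27, adjusted p = 0.0282, limma). The interaction called 3 of 50, against 13.0% of all genes: Cox17, Cox14 and Ttc19.

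Of the 13 subunits encoded on mitochondrial DNA 2 were called in males, which is 15.4% against 21.6% of all genes. In females 0 were called by limma, against 11.5% of all genes, and 0 had an unadjusted p under 0.05. mt-Co3 rose from 3533 ± 459 to 4533 ± 223 TPM (SD, n = 3; log2 fold change 0.37, adjusted p = 0.0274), and mt-Atp8 fell from 856 ± 115.5 to 615 ± 64.0 TPM (-0.47, adjusted p = 0.0213). Libraries were made from polyadenylated RNA, and the mitochondrial genes took 3.14% to 3.82% of the TPM. Among 13 electron carriers and regulators of mitochondrial biogenesis 11 were tested, and 2 of them were called in males, which is 18.2% against the same 21.6%. Polrmt, the mitochondrial RNA polymerase, rose by 0.47 (adjusted p = 0.00433) and Yy1, a transcription factor with many targets, had a change of -0.26 (adjusted p = 0.0140), both in males. In females 0 were called by limma, against 11.5% of all genes, with 1 at an unadjusted p under 0.05.

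Promoters of respiratory chain genes are known to hold sites for the factors NRF1 and GABP. RefSeq promoter windows of 300 bases (250 before and 50 after the start, GRCm38.p6) matched 67 of the 86 members, with 72 windows. The 7 letters GCATGCG of the NRF1 motif, on either strand, were in 15.3% of member windows and in 3.58% of all 32851 windows. The core CGGAAG bound by ETS factors such as GABP was in 37.5% and 16.9%, and the hypoxia response core ACGTG in 23.6% and 19.6%. NRF1 letters were in 3 of 34 windows of complex I, 1 of 3 of complex II, 2 of 5 of complex III, 1 of 14 of complex IV and 4 of 16 of complex V. The windows of these genes hold more of the first 2 motifs than windows in general, which is a description of letters and not of binding.

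Among the members called between KO and WT, 3 windows with the NRF1 letters are shown: Cox6a1, which was called in both sexes, Uqcrc1, which was called in females, and Uqcr11, whose call in males held without each library. Capitals mark matches to the 3 motifs. In each window the NRF1 letters overlap their own reverse complement, so 1 site matches on both strands. The windows are chr5:115348909-115349208 on the minus strand for Cox6a1, chr9:108936398-108936697 on the plus strand for Uqcrc1 and chr10:80406772-80407071 on the minus strand for Uqcr11.
Cox6a1: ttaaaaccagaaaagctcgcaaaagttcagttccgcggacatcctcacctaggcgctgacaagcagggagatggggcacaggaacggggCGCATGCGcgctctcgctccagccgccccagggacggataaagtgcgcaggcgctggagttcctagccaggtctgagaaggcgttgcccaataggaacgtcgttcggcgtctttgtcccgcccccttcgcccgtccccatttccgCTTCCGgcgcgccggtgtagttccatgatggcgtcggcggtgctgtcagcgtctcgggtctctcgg
Uqcrc1: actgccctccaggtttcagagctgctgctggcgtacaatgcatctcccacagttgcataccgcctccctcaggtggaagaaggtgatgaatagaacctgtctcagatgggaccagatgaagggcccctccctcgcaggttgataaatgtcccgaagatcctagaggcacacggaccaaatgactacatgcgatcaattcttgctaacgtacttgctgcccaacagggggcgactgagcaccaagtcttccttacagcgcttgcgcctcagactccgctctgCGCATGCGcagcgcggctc
Uqcr11: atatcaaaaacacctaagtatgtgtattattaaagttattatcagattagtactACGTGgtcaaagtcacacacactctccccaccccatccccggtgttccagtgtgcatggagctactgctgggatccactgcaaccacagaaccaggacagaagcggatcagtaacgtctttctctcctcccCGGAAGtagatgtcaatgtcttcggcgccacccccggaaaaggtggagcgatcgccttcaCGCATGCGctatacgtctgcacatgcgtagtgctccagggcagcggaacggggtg
Cox6a1 also holds the ETS core on the other strand, and Uqcr11 holds the ETS core and the hypoxia response core. The windows of Ndufb3 and Ndufc2 hold none of the 3 motifs, and that of Ndufa3 holds only the hypoxia response core. Other called members are not described singly, and some of them, such as Uqcrb and Cyc1, had no window. Nrf1 itself and Gabpa, which encodes the DNA-binding part of GABP, were expressed, at 48.4 ± 1.89 and 41.2 ± 3.73 TPM in male WT (SD, n = 3).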

How the data were processed

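The authors quantified reads with Salmon (version 1.10.1 in the submitters' processing notes) against GRCm38 after trimming by the sequencing provider, and deposited TPM values per gene for 12 libraries; the annotation release is not given in the sources used here. TPM keep no sequencing depth, so no counting error is given. All columns were used (0 left out).

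Gene names, types and positions came from GENCODE release M21 (GRCm38), to which 99.2% of identifiers matched, 93.4% with the same version. Members and lists were chosen with earlier results of these data known. Since TPM are not counts, log2(TPM + 1) values of genes averaging 1 TPM or more were fitted in limma 3.58.1 (R 4.3.3), allowing a trend of variance with mean. Each pair of groups had its own fit of 6 libraries, and the interaction was fitted over 12. P-values are two-sided, adjusted over all 12504 genes (Benjamini-Hochberg). Near copies were pseudogenes of at least 0.1 TPM aligned with blastn 2.17.0. Promoters came from RefSeq.

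Named genes were the members called in males, females or the interaction, the 3 called members of largest change in each comparison of the sexes, isoforms and their partners, the highest and lowest of each complex, and from each other list up to 3 called genes of largest change in males and in females. Alternatives were another pseudocount, other filters, median-of-ratios scaling, no trend, a replicate block, 1 fit of all libraries, each library left out, and copies added (chosen after the data were seen). No 2 libraries shared more than 0.0115% of their values above 0. The columns held no comparisons by the authors.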

Additional observations from a re-analysis of the deposited data

Results flagged for a closer look

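For 4 members the change from WT to KO differed between the sexes by the interaction test (limma, adjusted p under 0.05): Ndufb3 (-0.39), Uqcrb (-0.24), Uqcrc1 (-0.17) and Cox6a2 (2.08), as differences of log2 fold changes, male minus female. Ndufb3 lay lower in KO in all 3 male cultures and higher in all 3 female cultures. Cox6a2 did the opposite, at levels between 0.225 and 4.38 TPM. Uqcrb and Uqcrc1 had log2 fold changes of 0.32 and 0.16 in females and of 0.08 and -0.01 in males. With the replicate number as a block Ndufb3, Uqcrb and Cox6a2 stayed called and Uqcrc1 did not (adjusted p = 0.0602).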

How the results depend on the processing

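No value changed sign among the calls. Numbers of called members, 6 in males, 6 in females, 4 in the interaction, 8 between WT groups and 9 between KO groups, fell to 1, 0, 2, 3 and 3 without a mean-variance trend. Without a filter on low values they were 1 in females, 4 between WT groups and 4 between KO groups. With 1 fit of all 12 libraries 10 were called in males. Same-numbered libraries deviated together with correlations of only -0.0571 to 0.0779 over the genes tested, which cannot show whether they shared a batch. With the replicate block 5, 1, 5, 5 and 4 were called. Leaving out 1 library gave 3 to 5 in males, 0 to 4 in females, 1 to 4 in the interaction, 3 to 8 between WT groups and 2 to 6 between KO groups, with fewer libraries in each fit. A pseudocount of 0.1 kept all 33 calls. Median-of-ratios scaling kept 26 of the 33 and moved the female change of complex I from 0.046 to 0.075 (sum) and from 0.055 to 0.084 (median). Leaving out the member of highest TPM moved the male log2 ratio of complex III from -0.010 to -0.046 and that of complex V from -0.033 to 0.024. The shares of all genes called under these settings are not given here. Falls in the counts therefore cannot be read as particular to the members. The causes of these shifts were not tested. Depth, and with it the precision of values near 0 such as those of the tissue isoforms, is unknown.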
